A study of Mus musculus with 69 samples.

Results

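Whole-liver gene expression after a high dose of paraquat (PQ) was compared with that after a high dose of isoniazid (INZ), 1 day after dosing, with no vehicle array in the contrast. The members were chosen by their labels alone. They were the 5 arrays labelled as PQ high dose and the 5 labelled as INZ high dose at 1 day, 10 of the 69 arrays of the series, and all 17306 probe sets of the table were tested. The mice were male C57BL/6 mice, 10 weeks old, with no genetic change given in the labels, and each received a single oral dose by gavage, of 50 mg/kg PQ or 88 mg/kg INZ. RNA came from the left lateral lobe, 1 mouse per array. The series also holds acetaminophen (APAP) groups, lower doses, a later day and vehicle mice, and every PQ and INZ group had 5 arrays except PQ at the medium dose with 4. The vehicle mice of day 1, which are labelled for the APAP experiment, are given beside the main results as the untreated level. They are in no contrast, and entered only the fits that took the spread from more groups. PQ is a herbicide that takes up single electrons from flavoenzymes and passes them to oxygen. INZ is a tuberculosis drug that liver acetylates and hydrolyses. The doses of the compounds were not matched in mg/kg, so a difference between them is a difference between these doses.

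Liver handles foreign compounds through cytochromes P450, a family of haem enzymes. Expression of many of these is set by the nuclear receptors CAR and PXR, which sense drugs and bile acids. Genes of the Cyp2b, Cyp2c and Cyp3a subfamilies, and Slco1a4, the gene of an organic anion transporter of the hepatocyte membrane, are classical mouse targets of this pair of receptors. Another regulator of liver genes, NRF2, raises thiol and glutathione enzymes under oxidative stress. SREBP1 drives fatty acid synthesis in the fed state.

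Signals are RMA values on a log2 scale, so a difference of 1 is a doubling, and every difference below is PQ minus INZ. Arrays are called by the end of their titles, and values by array are given in the order of the numbers there, with PQ array 1d_203 last. Hepatocyte markers were abundant in all 10 arrays: the mean signal over 12 measured genes of general hepatocytes was 12.78 to 12.85 in the PQ arrays and 12.77 to 12.87 in the INZ arrays. Medians of the 10 arrays lay between 4.381 and 4.546, and no pair of arrays held identical values. A signal below these medians was not shown to lie above background. In bulk tissue, fewer cells of a type and less RNA per cell cannot be told apart. Precision was limited by the number of arrays.

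One PQ array, the one titled PQ high 1d_203, stood apart from the other 9. Its correlations with them across genes were 0.9708 to 0.9757, against 0.9925 to 0.9965 among the 9. On the first principal component, which held 53.6% of the variance, it lay at 66.8 and the others between -11.2 and -0.4. It differed by more than 2-fold from the mean of the other 4 PQ arrays in 1208 genes (6.98%), of which 733 were higher and 475 lower. The share was 0.0925% to 0.641% in each of the other 9 arrays, set against the rest of its own group without array 1d_203. The number also fell in the range above 190 that holds 11 arrays of the series, 2 of them here, array 1d_203 and INZ array 1d_198. The meaning of the numbers is not given in the labels. Results are therefore given with all 10 arrays and without array 1d_203.

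No gene passed an adjusted p of 0.05 in either form of the comparison. With 10 arrays, limma called 0 of 17306 probe sets (0%), and 817 had an unadjusted p under 0.05, 367 higher (2.12%) and 450 lower with PQ (2.6%). The smallest adjusted p was 0.168. Without array 1d_203, limma again called 0, with 1241 at an unadjusted p under 0.05, 541 higher and 700 lower, and a smallest adjusted p of 0.0957, shared by 8 genes. An unadjusted p under 0.05 is reached by about 865 of 17306 probe sets where nothing differs. Differences were small over most of the genome: 22 probe sets differed by more than 2-fold with array 1d_203, 13 higher and 9 lower with PQ, and 8 without it, 4 in each direction. The groups of 5 did not overlap in 77 probe sets with PQ higher (0.445%) and in 124 with PQ lower (0.717%). Without array 1d_203, PQ lay above every INZ array in 184 (1.06%) and below in 262 (1.51%).

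Of 21 measured drug-handling P450 genes, 14 had lower and 7 higher means with PQ without array 1d_203. The 5 named here had lower values with PQ at an unadjusted p under 0.05 in that comparison, and each passed the adjusted threshold only in other settings of the fit, given below. Cyp2c55, an inducible enzyme of the Cyp2c subfamily, was 3.68-fold lower without array 1d_203 and 4.75-fold lower with it. Cyp3a44, a Cyp3a enzyme with higher expression in female liver, was 1.88-fold lower without that array. Cyp2b10, the gene classically induced through CAR, had an INZ mean of 5.54 and a PQ mean of 3.65, and no fold is given because most PQ signals lay under the medians of their arrays. Cyp3a11 and Cyp2c29, among the most abundant P450 transcripts of liver, were lower by smaller steps of 1.18-fold and 1.23-fold. Their signals by array are plotted with those of vehicle mice.

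**Figure D1:**
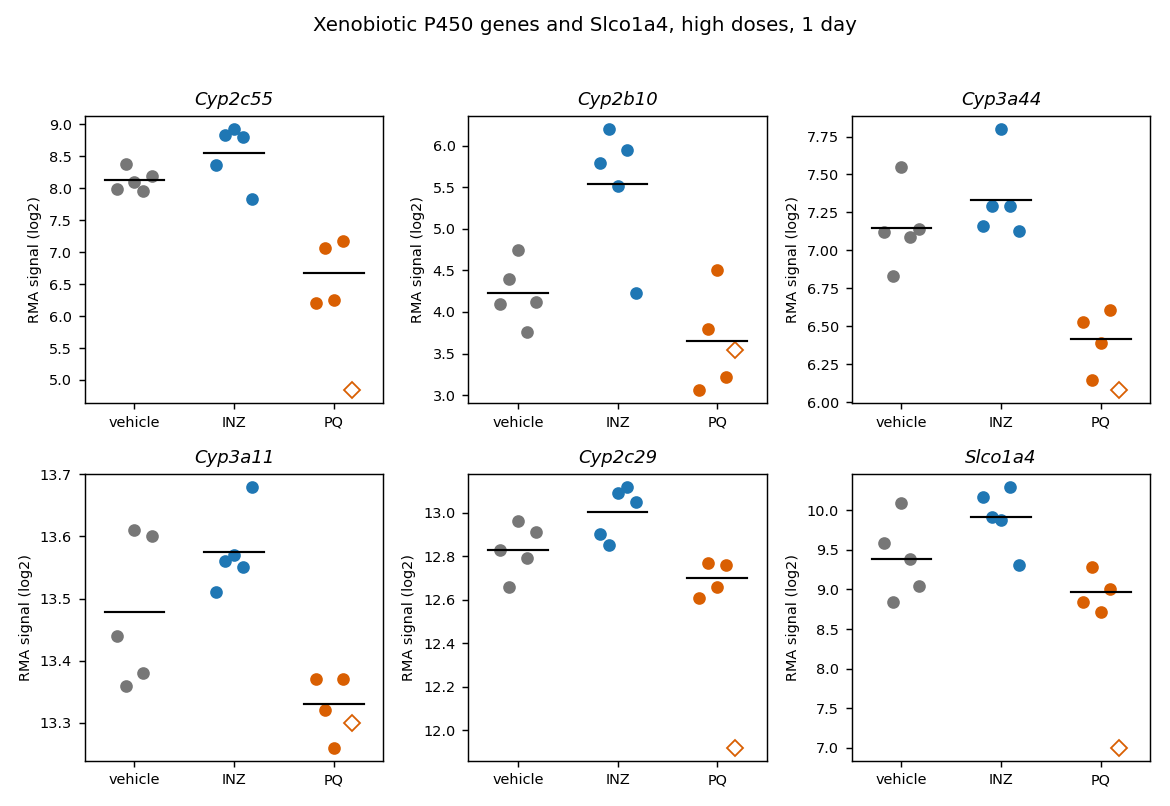
RMA signal (log2, y axis) of 5 P450 genes and Slco1a4 in vehicle, INZ and PQ arrays at 1 day, 1 point per array. The open diamond is PQ array 1d_203 and the lines are group means without it. PQ points lie below every INZ point in 5 of the 6 genes, and Cyp2b10 is the one in which the groups overlap.

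Promoters of Cyp2c55, Cyp2b10 and Cyp3a44 are shown because the values of these genes were lower together in the PQ arrays. The sequences run from 250 bases before to 50 bases after the start of the gene, on the gene's strand, from RefSeq on GRCm38.p6. They were searched on both strands for the nuclear receptor half-sites AGGTCA and AGTTCA, and capitals mark a match. No matches overlapped. The windows are chr19:39006769-39007068 on the plus strand for Cyp2c55, chr7:25897408-25897707 on the plus strand for Cyp2b10 and chr5:145805825-145806124 on the minus strand for Cyp3a44.
Cyp2c55: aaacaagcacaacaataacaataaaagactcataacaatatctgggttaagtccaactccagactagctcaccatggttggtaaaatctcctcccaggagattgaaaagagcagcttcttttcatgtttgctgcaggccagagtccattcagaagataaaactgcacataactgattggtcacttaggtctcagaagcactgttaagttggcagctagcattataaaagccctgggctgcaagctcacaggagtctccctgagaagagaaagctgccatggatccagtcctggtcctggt
Cyp2b10: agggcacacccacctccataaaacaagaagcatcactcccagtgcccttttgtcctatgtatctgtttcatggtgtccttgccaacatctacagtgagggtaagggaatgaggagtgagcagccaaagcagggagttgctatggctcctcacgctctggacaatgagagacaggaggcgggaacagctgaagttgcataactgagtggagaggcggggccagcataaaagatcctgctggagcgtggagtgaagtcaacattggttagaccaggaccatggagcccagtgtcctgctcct
Cyp3a44: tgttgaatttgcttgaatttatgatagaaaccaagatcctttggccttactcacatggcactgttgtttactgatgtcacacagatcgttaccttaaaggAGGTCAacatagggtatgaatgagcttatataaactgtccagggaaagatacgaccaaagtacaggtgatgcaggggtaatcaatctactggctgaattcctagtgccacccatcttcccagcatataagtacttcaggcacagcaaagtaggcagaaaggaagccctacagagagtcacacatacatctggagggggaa
The Cyp3a44 window held 1 AGGTCA, 150 bases before the start, and the windows of Cyp2c55 and Cyp2b10 held neither half-site. Of 32851 mouse promoters of the same length, 16.3% held AGGTCA, 14.0% held AGTTCA and 27.7% held either. A match to these letters is a description of the window, and enhancers farther away were not searched.

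Cyp2c55 signals were 8.36, 8.84, 8.93, 8.80 and 7.84 in the INZ arrays and 6.20, 7.07, 6.25, 7.18 and, in array 1d_203, 4.84 in the PQ arrays. Every PQ array lay below every INZ array, and also below the lowest vehicle array at 7.96. The difference was -1.88 (SE 0.263) without array 1d_203, with an adjusted p of 0.096 by limma, and -2.25 (SE 0.40) with it, with an adjusted p of 0.54. Among the 4 PQ and 4 INZ arrays numbered up to 190 it was -2.06, and Cyp2c55 and Fasn were the 2 genes limma called there, with an adjusted p of 0.042. The mean was 8.56 ± 0.46 with INZ (SD, n = 5), 6.68 ± 0.52 with PQ without array 1d_203 (SD, n = 4) and 8.12 ± 0.17 in vehicle mice (SD, n = 5). The vehicle mean thus lay nearer to the INZ mean than to the PQ mean.

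Cyp2b10 signals were 5.79, 6.20, 5.51, 5.95 and 4.23 with INZ and 3.06, 3.80, 4.51, 3.22 and, in array 1d_203, 3.54 with PQ. Here the groups overlapped, since the INZ array 1d_198 at 4.23 lay below the PQ array 1d_151 at 4.51. The vehicle mean, 4.22 ± 0.37 (SD, n = 5), lay between the PQ mean of 3.65 and the INZ mean of 5.54, and most PQ values were under the medians of the arrays. The difference was -1.89 (SE 0.389) without array 1d_203, with an adjusted p of 0.28 by limma.

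Cyp3a44 signals were 7.16, 7.29, 7.80, 7.29 and 7.13 with INZ and 6.53, 6.15, 6.39, 6.61 and 6.08 with PQ, the last being array 1d_203. The groups did not overlap, and all PQ arrays were below the lowest vehicle array at 6.83. For this gene array 1d_203 was close to its group, and the difference was -0.91 (SE 0.139) without it and -0.98 (SE 0.144) with it, with adjusted p values of 0.096 and 0.17 by limma.

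Cyp3a11, the main drug-metabolising Cyp3a enzyme of mouse liver, had a mean of 13.57 ± 0.06 with INZ (SD, n = 5) and 13.33 ± 0.05 with PQ without array 1d_203 (SD, n = 4). Array 1d_203 stood at 13.30, inside the PQ range of 13.26 to 13.37, which lay below the INZ range of 13.51 to 13.68. The vehicle arrays, 13.36 to 13.61, overlapped both. Cyp2c29 stood at 12.85 to 13.12 with INZ and at 12.61 to 12.77 with PQ, with array 1d_203 far below at 11.92. Its vehicle arrays, 12.66 to 12.96, again overlapped both. Neither gene passed, with adjusted p values of 0.40 and 0.40 by limma without array 1d_203. Transcripts of these subfamilies are similar in sequence, and how far each probe set tells its close relatives apart was not tested.

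Slco1a4 signals were 10.17, 9.92, 9.88, 10.30 and 9.31 with INZ and 8.84, 9.29, 8.71, 9.01 and, in array 1d_203, 7.0 with PQ. The groups did not overlap, although the highest PQ array, at 9.29, came close to the lowest INZ array, at 9.31. The difference was -0.95 (SE 0.183) without array 1d_203 and -1.34 (SE 0.376) with it, with adjusted p values of 0.28 and 0.90 by limma. The vehicle arrays, 8.84 to 10.09, covered part of both ranges.

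Among the 21 measured xenobiotic P450 genes, those 5 were lower at an unadjusted p under 0.05 and 0 were higher, where 4.04% and 3.13% of all probe sets were. The groups did not overlap in 4 members, all lower with PQ, where 1.51% of all probe sets lay lower without overlap and 1.06% higher. The median difference of the list was -0.05, against 0.00 over all probe sets, so that most of its members were close to the general level. With array 1d_203 the median was -0.25. Cyp1a2, which the aryl hydrocarbon receptor controls, stood at 12.37 to 12.46 in the PQ arrays without array 1d_203 and at 11.98 to 12.77 with INZ. Cyp2e1, the ethanol-inducible P450, was at 13.61 to 13.65 and 13.47 to 13.64, a difference of 0.04 (SE 0.059).

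The spread of a gene can also be taken from more mice. When it was estimated from all 49 arrays outside the APAP groups, limma called 8 genes (0.0462%) in the same comparison of 10 arrays, 2 higher and 6 lower with PQ. Without array 1d_203 and from 48 arrays it called 12 (0.0693%), 1 higher and 11 lower. The 6 genes in both sets were Cyp2c55, Cyp3a44, Cyp2b10, Cyp3a11 and Cyp2c29, all lower, and Baz1a, higher. Their adjusted p values without array 1d_203 were 8.8e-05 for Cyp2c55, 0.00053 for Cyp3a44, 0.0037 for Cyp2b10, 0.014 for Baz1a, 0.025 for Cyp2c29 and 0.026 for Cyp3a11. The other 2 genes called with array 1d_203 were Serpina11 at 0.41 and Mterf2 at -0.81, with adjusted p values of 0.032 and 0.046. The other 6 called without it were Gldc, an enzyme of glycine breakdown, at -0.55, Edem1, which acts in the disposal of misfolded glycoproteins, at -0.30, Ikbke at -0.64, Anapc4 at -0.39, Ttc27 at -0.43 and Ttc8 at -0.51. In array 1d_203, Gldc stood at 8.84, Edem1 at 10.29, Ikbke at 8.04, Anapc4 at 7.28 and Ttc27 at 6.34. Each of these values lay above every INZ array, opposite to the other PQ arrays, and Ttc8, at 5.92, lay inside the INZ range. Serpina11, Gldc, Anapc4, Ttc27 and Ttc8 are named because they passed here, after their values were seen. With the APAP groups also in the estimate, limma called 5 genes with array 1d_203 and 0 without it. This setting takes the spread as equal in all PQ, INZ and vehicle groups. For Cyp2b10 it was smaller than that of the groups compared, whose SDs were 0.66 and 0.77 against 0.21 to 0.46 in 7 of the other 8 groups, PQ at the low dose being the exception at 0.89.

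Mice at other doses and times carried the same measure in arrays that the high-dose comparison at 1 day did not use. Over the low and medium doses at 1 day and the high doses at 2 days, 29 arrays in all, limma called 2 genes (0.0116%) for the mean of the PQ minus INZ differences, and both were lower with PQ. Cyp3a44 was one of them, at -0.51 (SE 0.071, adjusted p 0.0015). The other was Sumo3, the gene of a small ubiquitin-like modifier, at -0.18 (SE 0.033, adjusted p 0.042). When each of the 29 arrays was left out in turn, Cyp3a44 was called every time, at -0.55 to -0.48 with adjusted p values of 0.00014 to 0.006. Sumo3 kept its direction, at -0.20 to -0.17, but was called in 8 of the 29 fits, with adjusted p values of 0.017 to 0.14. In the high-dose comparison at 1 day, Sumo3 stood at -0.04 (SE 0.084) without array 1d_203 and at 0.12 (SE 0.153) with it.

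Cyp3a44 was lower with PQ at each level taken alone, by -0.39 (SE 0.136) at the low doses, -0.65 (SE 0.092) at the medium doses and -0.50 (SE 0.108) at 2 days. Taken alone these levels gave adjusted p values of 0.91, 0.26 and 0.18 by limma, none of which passed. Cyp2c55 differed by -0.36 (SE 0.278), -0.63 (SE 0.138) and -0.71 (SE 0.221) at the same levels, and by -0.57 on average, with an adjusted p of 0.29. Its INZ means were 7.70, 7.71 and 7.72 at those levels and 8.56 at the high dose after 1 day. Its PQ means were 7.34, 7.07, 7.01 and, at the high dose after 1 day without array 1d_203, 6.68.

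The difference in Cyp2b10 was close to 0 elsewhere, at 0.00 (SE 0.339) at the low doses and -0.11 (SE 0.198) at 2 days, and it was -0.39 (SE 0.15) at the medium doses. Its mean of 5.54 with INZ at the high dose after 1 day exceeded that of every other PQ, INZ or vehicle group, which ran from 3.49 to 4.22. Slco1a4 differed by 0.06, -0.49 and 0.15 at the 3 levels. The change of the difference from 1 to 2 days was tested itself, in 19 arrays without array 1d_203. It was 1.17 (SE 0.372) for Cyp2c55, 1.78 (SE 0.464) for Cyp2b10 and 1.10 (SE 0.311) for Slco1a4, with adjusted p values of 0.51, 0.44 and 0.49. Over all genes limma called 0 in that test, where 1289 had an unadjusted p under 0.05, and 0 with array 1d_203 included, where 1049 had.

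**Figure D2:**
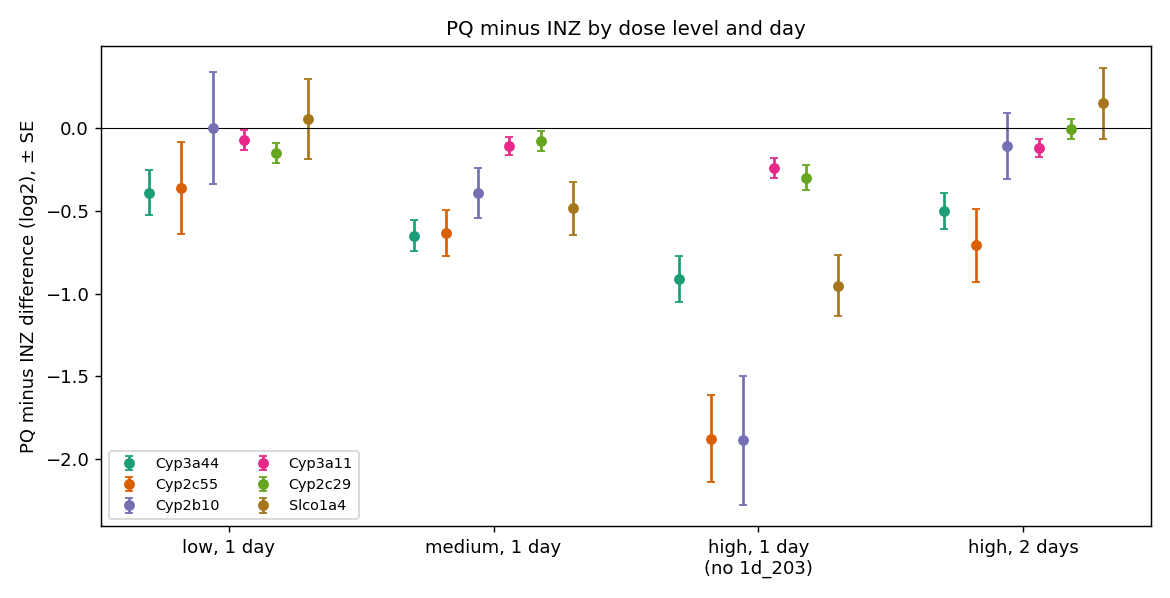
PQ minus INZ difference (log2, y axis, ± SE from limma) of 6 genes at the low and medium doses after 1 day, the high doses after 1 day without array 1d_203, and the high doses after 2 days. Cyp3a44 lies below 0 at all 4 levels, from -0.91 to -0.39, while Cyp2b10 lies near 0 at the low doses and at 2 days.

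Genes of fatty acid synthesis had lower values with PQ. Fasn, which encodes fatty acid synthase, was 1.85-fold lower without array 1d_203, Elovl6, an enzyme that lengthens fatty acids, 1.54-fold lower, and Acly, which supplies acetyl-CoA from citrate, 1.41-fold lower. None of them passed in limma. In each, the INZ mean lay nearer to the vehicle mean than the PQ mean did.

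Fasn signals were 10.82, 10.70, 10.58, 10.71 and 11.32 with INZ and 9.78, 9.98, 10.05, 9.96 and, in array 1d_203, 9.58 with PQ. The PQ arrays lay below all INZ arrays and below all vehicle arrays, whose range was 10.50 to 11.26. The difference was -0.88 (SE 0.133) without array 1d_203, with an adjusted p of 0.096 by limma, and -0.96 (SE 0.141) with it, with an adjusted p of 0.17. Among the 4 PQ and 4 INZ arrays numbered up to 190 it was -0.76, with an adjusted p of 0.042. With the spread of 48 arrays the adjusted p was 0.15.

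Acly stood at 10.06 to 10.36 with INZ and at 9.41 to 9.94 with PQ, array 1d_203 at 9.79 included, and the groups did not overlap. Elovl6 stood at 9.66 to 10.16 with INZ and at 8.96 to 9.73 with PQ without array 1d_203, which overlapped by 1 array and were joined by array 1d_203 at 8.58. Their differences without that array were -0.50 (SE 0.113) and -0.62 (SE 0.144), with adjusted p values of 0.31 and 0.34 by limma. Of the 18 measured lipogenesis genes, 16 had lower and 2 higher means with PQ, and 7 were lower at an unadjusted p under 0.05, where 4.04% of all probe sets were. The median difference was -0.31, the lowest of the 47 lists described here.

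At the low doses 14 of the 18 lipogenesis genes again had lower means with PQ. The order was not kept at the medium doses and at 2 days. The median of the list was -0.21 at the low doses, 0.05 at the medium doses and 0.04 at 2 days. Fasn itself differed by -0.55 (SE 0.263), 0.20 (SE 0.184) and 0.51 (SE 0.213). The change of its difference from 1 to 2 days, 1.39 (SE 0.278) without array 1d_203, had an unadjusted p of 7.6e-05 and an adjusted p of 0.26 by limma.

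**Figure D3:**
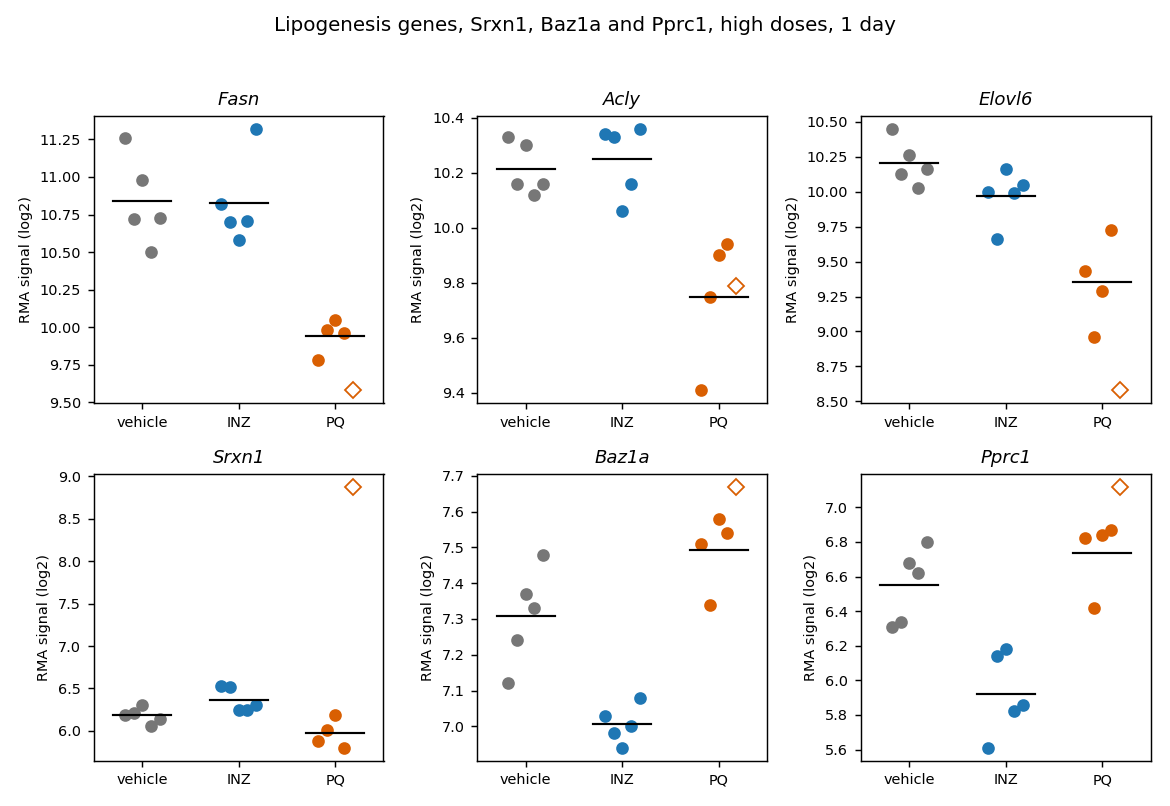
RMA signal (log2, y axis) of 3 lipogenesis genes, Srxn1, Baz1a and Pprc1 in vehicle, INZ and PQ arrays at 1 day, 1 point per array, with array 1d_203 as an open diamond and lines at group means without it. For Fasn and Acly the PQ points lie below all others, and for Srxn1 array 1d_203 lies at 8.88, far above the rest.

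No measured NRF2 target had a higher value with PQ at an unadjusted p under 0.05 when array 1d_203 was left out. Over all probe sets that share was 3.13%, so that few were to be looked for in a list of this size. Of 24 measured NRF2 targets, 22 had lower means with PQ without array 1d_203, 6 of them at an unadjusted p under 0.05, where 4.04% of all probe sets were, and the median difference was -0.12. Nqo1, the quinone reductase often read as the marker of NRF2 activity, stood at 5.45 to 6.42 with PQ without array 1d_203, at 5.73 to 6.66 with INZ and at 5.76 to 6.08 in vehicle mice. Hmox1, haem oxygenase 1, stood at 5.89 to 6.62 and 5.79 to 6.67, and Gclc, the catalytic subunit of glutathione synthesis, at 10.85 to 11.23 and 11.01 to 11.29.

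The NRF2 target with the smallest p was Srxn1, sulfiredoxin, which repairs oxidised peroxiredoxins. Its promoter window, chr2:152105274-152105573 on the plus strand, is shown because array 1d_203 and the other PQ arrays departed from INZ in opposite directions. Capitals mark the only match to TGANTCAGC, a pattern resembling the antioxidant response element that NRF2 binds, searched on both strands. Whether NRF2 binds this match was not tested. This motif was chosen after the sequence was seen.
Srxn1: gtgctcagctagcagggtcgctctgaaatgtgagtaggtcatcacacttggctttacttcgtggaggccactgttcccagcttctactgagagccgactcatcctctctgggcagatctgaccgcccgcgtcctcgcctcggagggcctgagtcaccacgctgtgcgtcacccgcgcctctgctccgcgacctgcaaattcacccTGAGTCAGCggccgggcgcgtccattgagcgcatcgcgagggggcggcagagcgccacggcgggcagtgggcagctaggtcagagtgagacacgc
The match lay 45 bases before the start, and 1.2% of 32851 promoters of this length held one.

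Srxn1 signals were 6.53, 6.52, 6.24, 6.24 and 6.30 with INZ and 5.88, 6.01, 6.19 and 5.80 in the PQ arrays other than 1d_203, against 6.06 to 6.31 in vehicle mice. Array 1d_203 stood at 8.88, which was 7.51-fold above the mean of the other PQ arrays. The difference was -0.40 (SE 0.099) without it, with an adjusted p of 0.40, and 0.18 (SE 0.504) with it, with an adjusted p of 0.98 by limma. Gsr, glutathione reductase, is named after its values were seen, and had the same order at smaller size. PQ without array 1d_203, at 8.47 to 8.55, lay just below the INZ range of 8.55 to 8.78. Array 1d_203 stood at 9.27. Srxn1 and Gsr were the only 2 of the 24 measured NRF2 targets whose groups did not overlap without that array. Over all probe sets, 1.51% lay lower and 1.06% higher without overlap. Of the 16 measured antioxidant enzymes, 0 differed at an unadjusted p under 0.05 in either direction. Without array 1d_203, 3.13% of all probe sets were higher and 4.04% lower at that p. Superoxide dismutases Sod1 and Sod2, catalase (Cat) and glutathione peroxidase Gpx1 differed by 0.05 (SE 0.057), -0.03 (SE 0.067), -0.03 (SE 0.087) and 0.03 (SE 0.063) without array 1d_203.

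The acetyltransferase gene Nat2 hardly differed, by -0.03 (SE 0.089) without array 1d_203, and its part in handling INZ in mice was not tested. The list named for INZ acetylation and hydrolysis held 13 measured genes, and 1 of them, Gstt1, is a glutathione S-transferase. Of the 13, 4 were lower with PQ at an unadjusted p under 0.05, Gstt1 included, and 0 higher. The shares over all probe sets were 4.04% lower and 3.13% higher. Means were lower in 8 and higher in 5, and the median difference was -0.04. Ces2a, a carboxylesterase, stood at 11.91 to 12.11 with INZ and 11.37 to 11.87 with PQ, array 1d_203 at 11.02. These groups did not overlap, and vehicle arrays at 11.77 to 12.16 covered the INZ range. The difference of -0.37 (SE 0.096) had an adjusted p of 0.41 by limma. Gsta4, a glutathione S-transferase acting on lipid aldehydes, was at 10.08 to 10.64 with INZ and 9.95 to 10.04 with PQ, with array 1d_203 at 9.81.

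Among genes with higher values in PQ arrays, Baz1a, a subunit of the ACF chromatin remodelling complex, stood at 6.94 to 7.08 in INZ arrays and at 7.51, 7.34, 7.58, 7.54 and, in array 1d_203, 7.67 in PQ arrays. It did not overlap between the compounds, and the vehicle arrays, 7.12 to 7.48, lay above all INZ arrays and reached into the PQ range. The difference was 0.49 (SE 0.066) without array 1d_203 and 0.52 (SE 0.07) with it, with adjusted p values of 0.096 and 0.17 by limma. At the other levels Baz1a differed by 0.27, 0.12 and 0.26.

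Pprc1, a coactivator related to PGC-1 that drives mitochondrial gene expression, stood at 5.61, 6.14, 6.18, 5.82 and 5.86 with INZ and at 6.82, 6.42, 6.84, 6.87 and, in array 1d_203, 7.12 with PQ. Its groups did not overlap, and as with Baz1a all 5 vehicle arrays, 6.31 to 6.80, lay above the INZ arrays. The difference was 0.81 (SE 0.131) without array 1d_203, with an adjusted p of 0.11 by limma. Foxa3, a hepatocyte transcription factor, was higher by 0.61 (SE 0.166), and Il1r1, the signalling receptor of interleukin 1, by 0.64 (SE 0.159), with adjusted p values of 0.42 and 0.40. Il1r1 stood at 6.84 to 7.39 with INZ, 7.51 to 8.23 with PQ, 9.20 in array 1d_203 and 7.44 to 8.13 in vehicle mice.

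Tbx3, a transcription factor of pericentral hepatocytes, had the largest positive difference without array 1d_203 among genes whose groups did not overlap and whose unadjusted p was under 0.01. It was 1.07 (SE 0.263), with an adjusted p of 0.40 by limma. Its PQ signals were 8.97, 8.22, 8.52 and 8.73, against 7.41, 6.62, 7.82, 7.71 and 8.14 with INZ and 7.49 to 8.17 in vehicle mice. The groups did not overlap until array 1d_203 was added, at 5.90. Of 20 measured pericentral markers, 15 had higher means with PQ without array 1d_203. At an unadjusted p under 0.05, 4 were higher and 1 lower, against 3.13% and 4.04% of all probe sets, and the median was 0.06. Array 1d_203 was below all the other 9 arrays in 17 of the 20, as it was in 29.6% of all probe sets.

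Further genes in which the PQ arrays other than 1d_203 all lay below the INZ arrays, at an unadjusted p under 0.01, included Fst, the activin antagonist follistatin, at -0.98. They also included the beta tubulin gene Tubb2a at -0.97, Mterf2, a mitochondrial transcription factor, at -0.78 and Aldh1b1, a mitochondrial aldehyde dehydrogenase, at -0.65. Ikbke, a kinase of innate immune signalling, stood at -0.64, as did Olfm3 and Sh2d4a, and 9130409I23Rik at -0.78. On the higher side Iffo2 stood at 0.53, Catsperd at 0.78, Slc5a6, which carries biotin and pantothenate, at 0.52, and the Wnt regulator Dact1 at 0.50. Rrm2, the small subunit of ribonucleotide reductase, was at 5.93 to 6.55 with INZ and at 5.44 to 5.84 with PQ including array 1d_203. Adjusted p values of these genes were 0.096 or more by limma. Array 1d_203 lay above all INZ arrays in Fst at 7.70, Tubb2a at 11.68 and Ikbke at 8.04. It lay below all of them in Catsperd at 3.50, Slc5a6 at 4.84 and Dact1 at 5.90. In Mterf2, Aldh1b1, Olfm3, Sh2d4a, 9130409I23Rik and Iffo2 it lay on the same side of the INZ arrays as the other PQ arrays.

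Metallothioneins, which bind zinc and respond to glucocorticoids and oxidants, varied widely between mice, and their groups overlapped. Mt2 signals were 7.12, 10.47, 6.37, 7.82 and 6.04 with INZ and 8.82, 9.80, 10.39, 8.51 and, in array 1d_203, 12.74 with PQ. INZ array 1d_158, at 10.47, lay above 4 of the 5 PQ arrays, and vehicle arrays spanned 7.34 to 10.32. The difference was 1.82 (SE 0.773) without array 1d_203, with an adjusted p of 0.66 by limma. Mt1 stood at 0.82 (SE 0.421). Alas1, the first enzyme of haem synthesis, which supplies P450s, had an INZ range of 11.14 to 12.27 and a PQ range of 12.10 to 12.53 without array 1d_203, which stood at 10.59. Its difference of 0.59 (SE 0.226) had an adjusted p of 0.61.

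In array 1d_203, markers of neutrophils and macrophages and acute phase genes stood high and bile acid genes stood low, described here for a single array with no test. The genes in which it exceeded the other 4 PQ arrays most were S100a8 by 5.29, Chil3 by 5.04, Lcn2 by 4.94, Sprr1a by 4.79, Psat1 by 4.68 and S100a9 by 4.67. S100a8 and S100a9 are calcium-binding proteins of neutrophils, Chil3 is a product of activated macrophages, and Lcn2 is an iron-binding acute phase protein. Ccl2, a chemokine that draws monocytes, followed at 4.63 and Hspa1a, an inducible heat shock protein whose neighbour Hspa1b is nearly identical, at 4.07. S100a8 stood at 9.67 in array 1d_203, against a mean of 4.38 in the other PQ arrays, 4.36 with INZ and 4.03 in vehicle mice, levels around or under the array medians. Lcn2 stood at 13.05 and was high in single other mice too, at 10.75 in PQ array 1d_151 and 10.26 in 1 vehicle array.

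The lowest value of array 1d_203 relative to the other PQ arrays was that of Cyp7a1, which sets the rate of bile acid synthesis. It stood at 4.14 in array 1d_203, at 10.56, 9.67, 11.21 and 10.01 in the other PQ arrays, and at 9.96, 9.20, 8.0, 9.89 and 10.61 with INZ. Vehicle arrays stood at 8.84 to 10.07. The value in array 1d_203 was under the median of that array, so no fold is given, and the other PQ and the INZ arrays overlapped. Hsd3b5, a steroid dehydrogenase of male liver, followed at -4.52, Usp2, a deubiquitinase with a daily rhythm, at -4.45, Hsd3b2 at -4.33, and, farther down the 12 lowest genes, Serpina6, the plasma carrier of corticosteroids, at -3.66. Hsd3b family members are close in sequence, and cross-hybridisation between them was not tested.

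**Figure D4:**
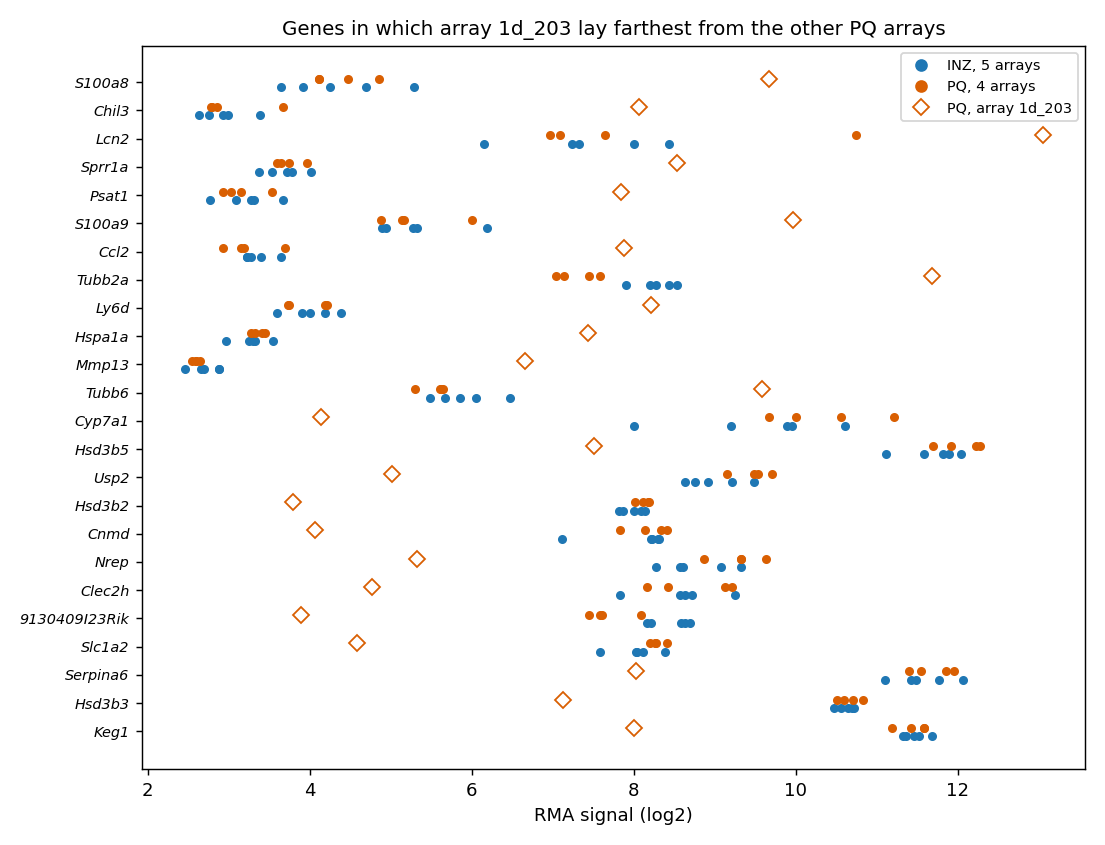
RMA signal (log2, x axis) in the 10 arrays of the 12 genes highest and the 12 genes lowest in array 1d_203 relative to the other PQ arrays. Open diamonds are array 1d_203, filled orange points the other 4 PQ arrays and blue points the 5 INZ arrays. The diamond lies beyond all 9 other arrays in every gene shown.

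Array 1d_203 was above all 9 other arrays in 14 of 17 measured markers of monocytes and macrophages, in 10 of 15 of neutrophils, in 20 of 24 acute phase genes and in 18 of 19 chaperones of the endoplasmic reticulum, where it was so in 24.2% of all probe sets. The mean signal over the monocyte and macrophage markers was 7.61 in array 1d_203, 5.61 to 6.21 in the other PQ arrays and 5.59 to 6.06 with INZ. Over the neutrophil markers it was 5.83, 4.01 to 4.50 and 4.10 to 4.35. It was below all 9 others in 18 of 20 bile acid genes, 12 of 18 lipogenesis genes and 12 of 21 xenobiotic P450s, against 29.6% of all probe sets. Over the 12 general hepatocyte markers its mean, 12.80, lay inside the range of the other arrays. The part of these cells in its P450 and bile acid values was not tested.

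Gene lists are plotted by their medians with and without array 1d_203. Without it, monocyte and macrophage markers had a median of 0.06, acute phase genes 0.08 and endoplasmic reticulum chaperones -0.08, against 0.32, 0.25 and 0.12 with it. Of the 16 measured glucocorticoid targets, 4 were higher and 1 lower at an unadjusted p under 0.05 without array 1d_203, against 3.13% and 4.04% of all probe sets, with a median of 0.20. Of these, Fkbp5, a chaperone of steroid receptors, was higher by 0.29 (SE 0.099), Sgk1, a kinase, by 0.30 (SE 0.101), and Per1, a clock gene, by 0.46 (SE 0.193), with adjusted p values of 0.56, 0.54 and 0.65 by limma. Tat, tyrosine aminotransferase, was the lower one, by -0.32 (SE 0.136). All 10 measured male-biased liver genes had higher means with PQ without array 1d_203, with a median of 0.26, but 1 of 10 reached an unadjusted p under 0.05, where 3.13% of all probe sets were higher. In array 1d_203 the median of these genes lay 1.28 below the other PQ arrays.

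**Figure D5:**
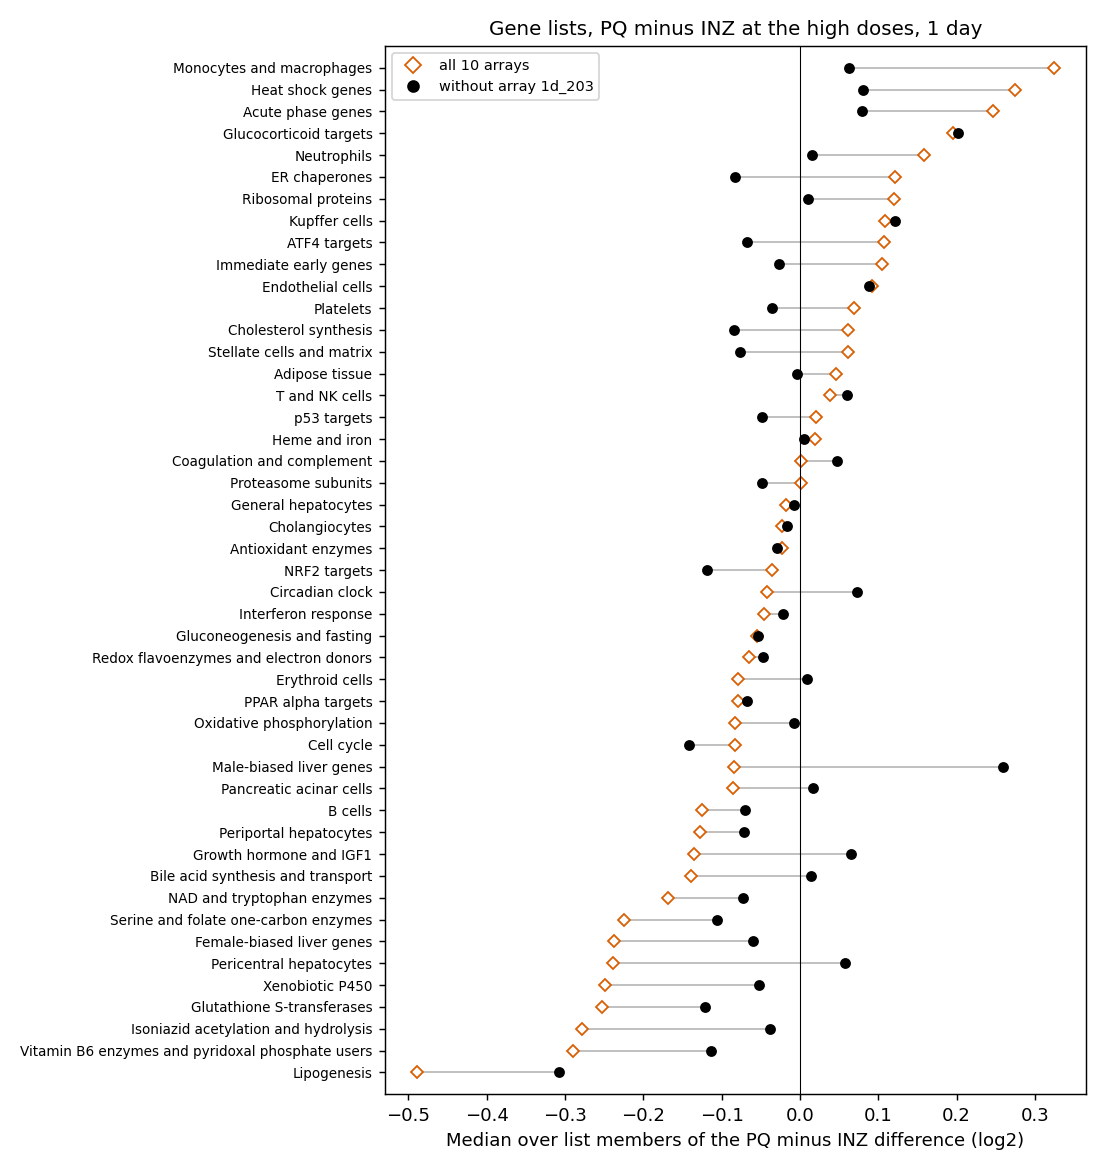
Median over the measured members of each of 47 gene lists of the PQ minus INZ difference (log2, x axis), with all 10 arrays (open diamonds) and without array 1d_203 (black points). Lipogenesis is lowest in both, at -0.49 and -0.31, and the inflammation, heat shock and chaperone lists move toward or past 0 when array 1d_203 is left out.

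Some gene lists differed in other ways at the other levels, given here as values, since limma called 0 of 17306 probe sets at the low, medium and 2-day levels (0% each). At 2 days, 1625 probe sets had an unadjusted p under 0.05, 4.28% of all higher with PQ and 5.11% lower. Of the 20 measured interferon response genes, 11 were lower at that p and 0 higher, with a median of -0.23. Of 31 cell cycle genes, 10 were lower and 0 higher, with a median of -0.13. Rsad2, the interferon-induced antiviral protein viperin, differed by -0.69 (SE 0.114), with an adjusted p of 0.13 by limma.

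The cell cycle list stood the other way at the medium doses, where 5 of 31 genes were higher and 0 lower at an unadjusted p under 0.05, with a median of 0.10. At that level 892 probe sets had such a p, 2.65% of all higher and 2.51% lower, and at the low doses 909 did. Acute phase genes, secreted by hepatocytes in inflammation, had 8 of 24 lower and 0 higher there, with a median of -0.12. At the high doses after 1 day the same acute phase list had 3 of 24 higher and 0 lower without array 1d_203. There 3.13% of all probe sets were higher and 4.04% lower. The difference between levels was not tested for these lists.

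Markers of other cells are given without array 1d_203, where 3.13% of all probe sets were higher and 4.04% lower at an unadjusted p under 0.05. Of 14 Kupffer cell markers, 1 was higher at an unadjusted p under 0.05, with a median of 0.12 and mean signals of 8.21 to 9.07 with PQ and 8.20 to 8.59 with INZ. Endothelial markers had 16 of 18 means higher with PQ and a median of 0.09, with 1 at an unadjusted p under 0.05. Cell cycle genes had 25 of 31 means lower with PQ, with 4 lower and 1 higher at an unadjusted p under 0.05 and a median of -0.14. Their mean signals by array overlapped, at 3.92 to 4.25 with PQ and 3.97 to 4.76 with INZ. The middle INZ array stood at 4.04, inside the PQ range, and the PQ values lay under the array medians. Only 4 of the 15 ribosomal protein genes listed were measured, with a median of 0.01. Proteasome genes had 11 of 12 means lower with PQ, 0 of them at an unadjusted p under 0.05, with a median of -0.05. Oxidative phosphorylation and interferon lists had medians of -0.01 and -0.02. The albumin gene Alb differed by -0.03 (SE 0.054).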

How the data were processed

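Liver RNA of each mouse was hybridised to 1 array. The authors deposited log2 signals, made with RMA per the submitters' processing notes, whose version is not given in the sources used here. The table held 17306 probe sets with values of 1.87 to 14.34. A gene symbol was given for 16464, and 842 were left unnamed. Groups came from the array titles. Each of the 5 mice of a group was a separate animal, so p-values measure the spread between mice.

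Differences were fitted with limma 3.58.1 in R 4.3.3 (lmFit and eBayes) on the deposited log2 values with no further normalization, a mean per group and only the groups compared. Benjamini-Hochberg adjustment ran over all 17306 probe sets, and called means an adjusted p under 0.05. SE values are limma's moderated errors. The steps were tested on simulated data. The alternatives were the spread of more groups, array weights, a robust fit, centring, quantile normalization, no dim genes, the array number as a block, and each array left out.

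Array 1d_203 and the 47 gene lists were chosen with earlier results of these data known, some of them taken from that earlier work, so they are no independent support. Named genes were those with the largest differences among separate groups (up to 12 a direction, filled up at an unadjusted p under 0.01 and a difference of at least 0.5), the 3 smallest p values per list, the 12 highest and 12 lowest genes of array 1d_203, called genes of the other levels (up to 6 a direction) and 24 fixed genes. Other names are said to be chosen later, or come from lists. Promoter sequences are from RefSeq on GRCm38.p6, matched by symbol. Figures were drawn with Python 3.11.15 and matplotlib 3.10.9.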

Additional observations from a re-analysis of the deposited data

Results flagged for a closer look

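Most genes of the text, and the 12 highest and 12 lowest genes of array 1d_203, were looked at for a single array far from the rest of its group. Genes of the naming rule outside these were not looked at, so the counts do not cover them. The measure was the gap between the highest or lowest of the 5 arrays and its nearest neighbour, divided by the range of the 5, and a ratio above Dixon's 95% value of 0.71 was counted. Over 91 genes in both groups, 52 ratios passed, where chance gives about 1 in 20 groups, or 9.1. Of the 52, 43 were those of PQ array 1d_203. Many of these genes were chosen for their distance in that array, so the ratios describe it and test nothing.

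Array 1d_203 was the highest PQ array, with the ratio given for each gene, in Mmp13 (0.98), Hspa1a (0.96), Sprr1a (0.93), Tubb6 (0.92), Gsr (0.9), Cdkn1a (0.9), Ly6d (0.89), Tubb2a (0.88), Psat1 (0.88), Srxn1 (0.87), S100a8 (0.87), Ccl2 (0.84), Pgd (0.83), Edem1 (0.83), Ttc27 (0.83), Chil3 (0.83), Fst (0.82), Ikbke (0.78), Anapc4 (0.78) and S100a9 (0.78). The list holds the neutrophil proteins S100a8 and S100a9, the chemokine Ccl2, the heat shock protein Hspa1a and the antioxidant enzyme Srxn1.

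Array 1d_203 was the lowest PQ array in Hsd3b2 (0.96), Cyp1a2 (0.95), Slc1a2 (0.94), Dbp (0.92), Cyp2e1 (0.91), Hsd3b3 (0.91), Keg1 (0.89), Hsd3b5 (0.88), Usp2 (0.88), Cnmd (0.87), Catsperd (0.86), Serpina6 (0.86), 9130409I23Rik (0.85), Slc5a6 (0.84), Nat2 (0.82), Nrep (0.82), Cyp2c29 (0.81), Mthfd1 (0.81), Alas1 (0.78), Cyp7a1 (0.78), Clec2h (0.76), Slco1a4 (0.75) and Tbx3 (0.75). Among these are P450s, steroid dehydrogenases of the Hsd3b family, the bile acid enzyme Cyp7a1 and the clock output gene Dbp.

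The other 9 ratios were those of INZ arrays. Array 1d_158 was lowest in Cnmd (0.92), Cyp1a2 (0.8) and Sod2 (0.73), and highest in Mt1 (0.8) and Fgf21 (0.73). Array 1d_175 was highest in Cyp3a44 (0.77) and lowest in Foxa3 (0.87). Array 1d_198, whose number lies above 190 as that of 1d_203 does, was highest in Txnrd1 (0.73) and lowest in Dbp (0.93). The high Cyp3a44 value of array 1d_175, 7.80, belongs to the INZ side of a gene described above, and the other 4 INZ arrays stood at 7.13 to 7.29, all above the PQ arrays.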

How the results depend on the processing

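Called genes at the high doses after 1 day numbered 0 in limma with and without array 1d_203, and also with array weights, a robust fit with a trend, centring on array medians, quantile normalization or without dim genes. With all 10 arrays the count was 8 with the spread of all groups but APAP, 5 with that of all groups, 1 with array number above 190 as a block and 2 among arrays numbered up to 190. Without array 1d_203 these counts were 12, 0, 2 and 2. Array 1d_198 is then the only one numbered above 190, so both counts of 2 come from the same fit. That fit is also the one among arrays numbered up to 190 given before, and the one that leaves out INZ array 1d_198. Leaving out each array in turn gave 0 throughout with 10 arrays and 0 to 2 without array 1d_203, the 2 being Fasn and Cyp2c55 without INZ array 1d_198. Over the mean of the other 3 levels the count of 2 became 1 with the shared spread, 5 with array weights, 4 without dim genes, 4 with the number block and 1 to 4 with each array left out. For the change from 1 to 2 days it was 2 with the shared spread and 0 to 1 with each array left out. Without array 1d_203 it was 6 with the shared spread, 2 without dim genes, 1 with the number block and 0 to 3 with each array left out. Leaving out arrays at the other levels, an alternative added after seeing the data, gave 0 to 1 at the low doses, 0 to 2 at the medium doses and 0 to 26 at 2 days, the 26 without replicate 3 of INZ. Direction turned in a few genes, none of them called. With 10 arrays Srxn1 was -0.3 and Cyp7a1 0.72 with array weights, and -0.41 and 1.1 among arrays numbered up to 190. Without array 1d_203 Cat was 0.03 there and with the number block. With each array left out, the ranges across 0 were, with 10 arrays, -0.97 to 0.2 for Tubb2a, -0.4 to 0.37 for Srxn1 and -0.93 to 0.84 for Cyp7a1. Without array 1d_203 they were -0.28 to 0.01 for Hmox1, -0.08 to 0.03 for Cat, 0 to 0.06 for Gpx1, -0.07 to 0.04 for Nat2, -0.14 to 0.02 for Cdkn1a and -0.08 to 0.04 for Sumo3. Where a call depended on the setting, the cause was not tested. No paired analysis was possible because replicates were numbered in order of deposition and each array was a different mouse. Signals under the array medians were not shown to lie above background, which limits genes such as Cyp2b10.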
